A study of Homo sapiens with 12 samples.

Results

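Growth-factor receptor tyrosine kinases were followed in melanoma cells exposed to a RAF inhibitor. The set was defined by name as KIT, MET, EGFR, ERBB2, ERBB3, AXL, PDGFRA, IGF1R, FGFR1 and INSR, and every probe set carrying only that gene's symbol was taken. That gave 31 probe sets for the 10 genes, out of 22215 probe sets and 11963 named genes. The arrays came from 5 established human melanoma lines, Malme3M, SkMel-19, SkMel-28, SkMel-5 and SkMel-1, all labelled as carrying BRAF V600E and all grown in serum. Each line was kept for 8 h in 0.1% DMSO, the vehicle, or in 250 nM PLX4032 (vemurafenib, which blocks RAF kinases); for Malme3M and SkMel-19 there was a further culture in 1000 nM. There were 5 DMSO arrays, 5 arrays at 250 nM and 2 at 1000 nM, with 1 array per line and dose, so the cell lines served as the replicates and no line was measured more than once under the same condition. BRAF V600E is shared by the control arrays, so no array shows these receptors in melanoma cells without it.

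Receptor tyrosine kinases sit in the plasma membrane, bind a growth factor outside the cell, pair up and phosphorylate one another inside it. Adaptors docked on the phosphorylated tails then switch on RAS, which feeds the RAF-MEK-ERK cascade, and PI3K, which feeds AKT. A mutant RAF signals without RAS, and ERK output in turn restrains receptors and RAS through feedback proteins such as the Sproutys. Several of the receptors studied here, among them EGFR, ERBB3, MET, IGF1R, AXL, the FGF receptors and the PDGF receptors, are known from other work as routes by which melanoma cells escape RAF inhibitors.

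The values are array signals on a linear scale. Changes are given as log2(signal + 12) and were tested with limma, with cell line as a block and Benjamini-Hochberg adjustment over the 7178 genes whose brightest probe set reached a mean log2 value of 6.61, equal to a signal of 85.7. By that filter 7 receptors were tested, KIT, MET, ERBB2, ERBB3, IGF1R, FGFR1 and INSR. EGFR, AXL and PDGFRA lay below it and were read from a second fit that took in every probe set, and from a fit of all genes with no filter. The median signal of an array lay between 102.5 and 130.4, and on the GAPDH control, whose 3' over 5' signal rises where RNA is degraded, PLX4032 minus DMSO was -0.01 in log2 units (SD 0.07, n = 5 lines, two-sided exact sign-flip p = 0.875, where 5 pairs allow no p below 0.0625). The melanocyte genes MITF, SOX10, MLANA, PMEL, TYR, S100B and RAB27A were over 85.7 on 12 of 12 arrays, and PAX3 and TYRP1 on 10. TYRP1 lay at 27.6 and 18.7 in SkMel-1 at 250 nM and DMSO. PAX3 lay at 79.8 in DMSO and 44.4 at 1000 nM in Malme3M. Of the other cell type markers, the blood genes PTPRC and CD3E were over it on 0 arrays and LCP1 on 7. Of 4 endothelial genes PECAM1 and CDH5 were over it on 0 arrays, VWF on 1 and KDR on 5. Of 6 epithelial genes EPCAM, KRT5 and KRT14 were over it on 0 arrays, KRT8 on 3, CDH1 on 10 and KRT18 on 12. Of 8 fibroblast genes PDGFRB, COL3A1 and THY1 were over it on 0 arrays, COL1A2 and FAP on 4, DCN on 6 and COL1A1 and LUM on 12. For COL1A1 this holds for its brightest probe set only, as the others had mean log2 values of 4.41 to 5.00, under 6.61. In the fit of every probe set VWF (1.08, limma adjusted p = 0.0184) and KRT5 (0.97, limma adjusted p = 0.0326) were higher at 250 nM. In that fit 5% of all probe sets passed as higher and 5.11% as lower. KDR, another endothelial gene, was lower in that fit (-1.47, limma adjusted p = 0.0166), and KRT5 did not exceed 39.3 on any array. KRT18 was lower at 250 nM (-0.77, limma adjusted p = 0.00741), and among 9 melanocyte genes MLANA (0.20, limma adjusted p = 0.0100) and RAB27A (0.86, limma adjusted p = 0.000277) were higher. By comparison, 15.2% of all genes tested passed as higher and 13.1% as lower. The summed signal of the 9 melanocyte genes was 50235.3 to 71909.2 at 250 nM and 37181.3 to 65167.1 in DMSO, that of the 6 epithelial genes 639 to 5042 and 694 to 4939, that of the 8 fibroblast genes 626 to 2068 and 649 to 1770.0, that of the 3 blood genes 93.2 to 2307 and 76.0 to 2260.3, and that of the 4 endothelial genes 49.0 to 293 and 61.7 to 615; the part of these genes in the receptor results was not tested.

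The lines differed in receptor signal in DMSO, most widely for KIT, MET and ERBB3, which the plot of signal by line and dose shows. In DMSO, KIT, the receptor for stem cell factor that melanocytes need to survive, had a signal of 1034 in Malme3M, 616 in SkMel-1, 147 in SkMel-19, 62.9 in SkMel-5 and 15.4 in SkMel-28. MET, the receptor for hepatocyte growth factor, had 2054 in Malme3M, 1716 in SkMel-19, 926 in SkMel-5, 729.6 in SkMel-1 and 12.5 in SkMel-28. SkMel-28 thus lay under the filter level for both receptors, and SkMel-5 for KIT. ERBB3, a neuregulin receptor with little kinase activity of its own, was over that level in every line, with 5709 in Malme3M, 1881 in SkMel-28, 1713 in SkMel-19, 1109 in SkMel-5 and 482 in SkMel-1. ERBB2, which binds no known ligand and pairs with ERBB3, had 461 in Malme3M, 407 in SkMel-19, 361 in SkMel-28, 319 in SkMel-5 and 107 in SkMel-1. The line lowest in ERBB3 was therefore also lowest in ERBB2.

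**Figure D1:**
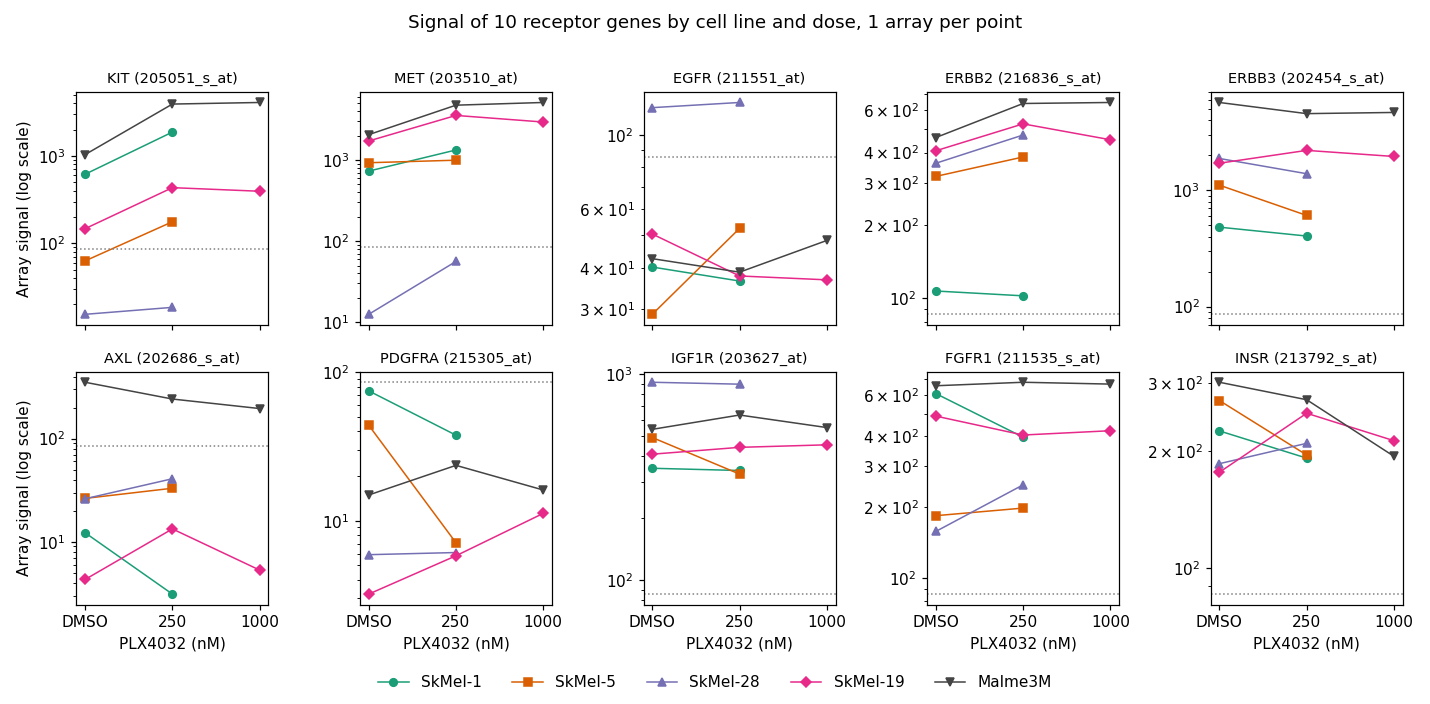
Array signal of the brightest probe set of each of the 10 receptors (log axis) in DMSO and at 250 and 1000 nM PLX4032, with 1 point per array and 1 line per cell line. The dotted line marks the filter level of 85.7. KIT and MET lie under it in SkMel-28 and KIT also in SkMel-5 in DMSO. AXL is over it only in Malme3M and EGFR only in SkMel-28.

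By their brightest probe sets, the other measured receptors spanned narrower ranges in DMSO. IGF1R, the receptor for insulin-like growth factors, had 917 in SkMel-28, 541 in Malme3M, 494 in SkMel-5, 410.0 in SkMel-19 and 350.2 in SkMel-1. FGFR1, a receptor for fibroblast growth factors, had 656 in Malme3M, 608 in SkMel-1, 488 in SkMel-19, 184 in SkMel-5 and 158 in SkMel-28. INSR, the insulin receptor, lay between 176 in SkMel-19 and 301 in Malme3M, a ratio of 1.70. KIT and MET in SkMel-28 were under the filter level, so their ratios of highest to lowest line are bounds with that level as the lowest signal, at least 12.1-fold for KIT and at least 24.0-fold for MET by its brightest probe set, against at least 12.1, 12.9 and 2.59-fold by the other MET probe sets. The ratio was 11.8 for ERBB3, 4.31 for ERBB2, 4.15 for FGFR1 and 2.62 for IGF1R. Other probe sets with a mean over the filter level gave at least 7.64 (210973_s_at) and at least 3.31 (207937_x_at) for FGFR1. For IGF1R 203628_at gave 2.81.

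Differences between lines were tested over the DMSO and 250 nM arrays, after the mean effect of the drug was removed, so that the spread is that of both arrays of a line. Of the 7 receptors tested 6 passed, while 90.2% of all genes tested did, so this share is near the background. The adjusted p of limma's F test was 2.49e-06 for KIT, 4.82e-07 for MET, 9.04e-06 for ERBB3, 1.15e-05 for ERBB2, 0.000352 for FGFR1 and 0.000621 for IGF1R, and it was 0.248 for INSR, which passed when the mean of its probe sets was used (0.0365). Neighbours in the order of lines often overlapped. For KIT the signals of Malme3M overlapped those of SkMel-1, and those of SkMel-19 overlapped those of SkMel-5, while SkMel-28 stood below the rest. For MET, Malme3M overlapped SkMel-19 and SkMel-1 overlapped SkMel-5, again with SkMel-28 below. For ERBB2 the upper 4 lines formed a chain of overlaps above SkMel-1. For ERBB3 only SkMel-19 and SkMel-28 overlapped. For FGFR1 SkMel-1 overlapped SkMel-19 and SkMel-28 overlapped SkMel-5, and for INSR each of the lower 4 lines overlapped its neighbour. For IGF1R the place of SkMel-28 depended on the probe set: by 203627_at it was above the other lines at both doses, whereas by 203628_at it had 180.6 at 250 nM and 157.7 in DMSO, the lowest of the lines in DMSO (the others had 158.3 to 442.9) and above only SkMel-5 at 250 nM.

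AXL, EGFR and PDGFRA had little signal. AXL, the receptor for GAS6, was over 85.7 in Malme3M only, at 242 with 250 nM and 352 with DMSO, and at most 40.8 on every array of the other lines; its second probe set did not exceed 28.2 anywhere. EGFR has 6 probe sets, and the only arrays over the filter level were those of SkMel-28, where probe set 211551_at gave 125 at 250 nM and 121 in DMSO, 201984_s_at gave 119 and 73.1, and 201983_s_at gave 73.7 and 98.1. The 3 other EGFR probe sets stayed at or below 9.0. The 3 PDGFRA probe sets were under the filter level on all 12 arrays, with a highest signal of 75.0, in SkMel-1 with DMSO. In the fit with no filter the F test between lines had a limma adjusted p of 0.000111 for AXL, 0.00747 for EGFR and 0.0195 for PDGFRA. With the filter 90.2% of all genes tested passed that F test. The share that passed with no filter is not given here, so these calls are not set against their own background. The PDGFRA signals compared were all under the filter level. Values this low do not show that a receptor is absent.

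KIT and MET were higher after 8 h at 250 nM. They were the 2 receptors of the 7 tested that passed limma (adjusted p under 0.05), and none passed as lower. Of all genes tested 28.3% passed, 15.2% higher and 13.1% lower, so the count of receptors is near the background. The median log2 change of the 7 receptors was -0.02, against 0.03 over all genes tested. The plot of changes by line shows that most receptors scattered around 0.

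KIT had a signal of 1869 at 250 nM and 616 in DMSO in SkMel-1, 176 and 62.9 in SkMel-5, 18.5 and 15.4 in SkMel-28, 433 and 147 in SkMel-19, and 3908 and 1034 in Malme3M. It was higher in all 5 lines, by 2.80 to 3.78 times the DMSO signal in 4 of them and by 1.20 times in SkMel-28, where both signals were under the filter level. The mean log2 fold change was 1.29 (SE 0.22, 95% interval 0.81 to 1.78, n = 5 lines, limma adjusted p = 0.00344), or 2.45-fold. Differences between lines were wide enough that the treated and untreated signals of the lines overlapped, and the rise is seen within each line. Without SkMel-28 the log2 fold change was 1.58 (limma adjusted p = 0.000783). KIT has 1 probe set on this array, so no other probe set checks this value. Each array holds the RNA of a whole culture, so more KIT RNA per cell and more cells that express KIT cannot be told apart.

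MET, by its brightest probe set (203510_at), had 1329.7 at 250 nM and 729.6 in DMSO in SkMel-1, 995 and 926 in SkMel-5, 56.1 and 12.5 in SkMel-28, 3546 and 1716 in SkMel-19, and 4746 and 2054 in Malme3M. The signal rose 1.82 to 2.31 times in SkMel-1, SkMel-19 and Malme3M and 1.07 times in SkMel-5, and the 4.49 times in SkMel-28 were measured between signals under the filter level. The mean log2 fold change was 0.94 (SE 0.17, 95% interval 0.56 to 1.32, n = 5 lines, limma adjusted p = 0.00476), or 1.91-fold. Setting all signals below 85.7 to that value gave 0.64 (limma adjusted p = 0.0339).

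The other MET probe sets gave smaller means, as the plot of probe sets shows. In the fit of every probe set, in which 10.1% of the 22215 probe sets passed (5.00% higher and 5.11% lower) and 2 of the 31 receptor probe sets did (205051_s_at of KIT and 203510_at of MET), 211599_x_at changed by 0.63 on the log2 scale (SE 0.19, limma adjusted p = 0.0698), 213807_x_at by 0.68 (SE 0.18, limma adjusted p = 0.0501, and 0.041 with a pseudocount of 1) and 213816_s_at by 0.40 (SE 0.24, limma adjusted p = 0.347). All 4 probe sets were higher in SkMel-1 (0.79 to 0.96) and in Malme3M (1.20 to 1.49). In SkMel-28 203510_at changed by 1.48, whereas the other probe sets changed by -0.15 to 0.27. In SkMel-5 the 4 lay between -0.07 and 0.34, so the size of the MET change in SkMel-28 and SkMel-5 depended on the probe set. In SkMel-19 213816_s_at was lower at 250 nM (173 against 222 in DMSO), while the others changed by 0.60 to 1.04.

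**Figure D2:**
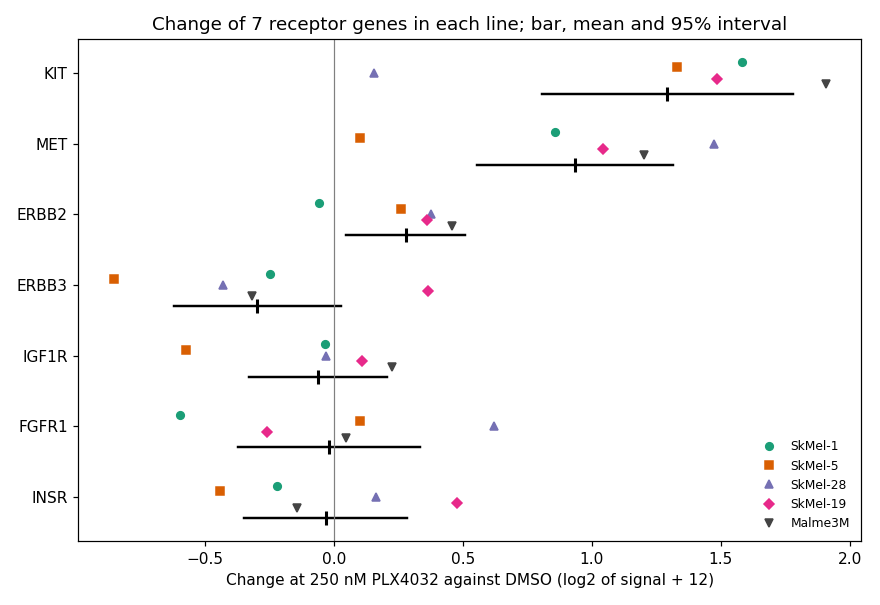
Change in log2(signal + 12) at 250 nM PLX4032 against DMSO for the 7 receptors tested; coloured points are the 5 cell lines and the black bar gives the mean of the lines with its 95% interval from limma. KIT and MET have means of 1.29 and 0.94, and the intervals of ERBB3, IGF1R, FGFR1 and INSR include 0.

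The promoters of KIT and MET, the receptors that passed, are shown for what these windows hold. The sequences are RefSeq's (GRCh38.p14), plus strand, 250 bases before to 50 after the annotated start, chosen after the results were seen, and capitals mark matches to CACGTG (an E-box), CATGTG (the M-box core bound by MITF), TGACTCA (AP-1), TGTTTAC (forkhead factors), GGGCGG (a GC box), CCGGAAG (ETS factors), ACAATGG (SOX factors), TGACGTCA (CREB) or TATAAA (the core promoter element of that name), searched on both strands. The motifs, too, were picked with the results in view. KIT lies at chr4:54657707-54658006 and MET at chr7:116671946-116672245.
KIT: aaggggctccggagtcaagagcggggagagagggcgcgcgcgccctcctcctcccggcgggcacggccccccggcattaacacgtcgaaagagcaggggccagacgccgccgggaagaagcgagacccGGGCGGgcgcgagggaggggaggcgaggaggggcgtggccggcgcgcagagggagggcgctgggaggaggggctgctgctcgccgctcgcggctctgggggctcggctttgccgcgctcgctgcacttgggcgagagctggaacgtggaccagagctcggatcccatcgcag
MET: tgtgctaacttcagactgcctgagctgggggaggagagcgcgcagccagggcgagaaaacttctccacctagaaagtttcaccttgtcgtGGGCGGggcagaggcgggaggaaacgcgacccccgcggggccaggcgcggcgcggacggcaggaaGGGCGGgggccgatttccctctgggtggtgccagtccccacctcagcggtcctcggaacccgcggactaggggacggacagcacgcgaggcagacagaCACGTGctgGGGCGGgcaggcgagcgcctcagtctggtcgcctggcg
The MET window holds 1 CACGTG, at bases 254 to 259 of the window, and 3 GGGCGG matches. The KIT window holds 1 GGGCGG match, at bases 129 to 134, and none of the other motifs. Of 35116 RefSeq promoter windows of the same length, 7.3% hold CACGTG, 11.1% CATGTG, 4.9% the AP-1 motif, 3.4% the forkhead motif, 45.0% the GC box, 10.3% the ETS motif, 3.2% the SOX motif, 1.8% the CREB motif and 11.5% the TATA box, on either strand. Of the motifs searched the GC box alone was in both windows. Of the 10 receptors 8 had an entry, and ERBB3 and FGFR1 were those not matched.

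ERBB2 was higher and ERBB3 lower in 4 of 5 lines, and neither passed. ERBB2 had 102 at 250 nM and 107 in DMSO in SkMel-1, 383 and 319 in SkMel-5, 473 and 361 in SkMel-28, 526 and 407 in SkMel-19, and 638 and 461 in Malme3M. Its mean log2 fold change was 0.28 (SE 0.10, 95% interval 0.05 to 0.51, n = 5 lines, limma adjusted p = 0.0693). SkMel-1, the line with the least ERBB2, was the exception, and without it the value was 0.36 (limma adjusted p = 0.032). The dim second probe set (210930_s_at) was higher in 2 of 5 lines.

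ERBB3 had 404 at 250 nM and 482 in DMSO in SkMel-1, 608 and 1109 in SkMel-5, 1391 and 1881 in SkMel-28, 2209 and 1713 in SkMel-19, and 4577 and 5709 in Malme3M. SkMel-19 was the only line in which it was higher, by 1.29 times, and SkMel-5 had the largest drop, to 0.549 of the DMSO signal. The mean log2 fold change was -0.30 (SE 0.14, 95% interval -0.62 to 0.03, n = 5 lines, limma adjusted p = 0.149). Without SkMel-19 it was -0.46 (limma adjusted p = 0.0294), so the call turned on that line.

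IGF1R, FGFR1 and INSR had means near 0 with lines on both sides. IGF1R (203627_at) had 342 at 250 nM and 350.2 in DMSO in SkMel-1, 328 and 494 in SkMel-5, 897 and 917 in SkMel-28, 443 and 410.0 in SkMel-19, and 635 and 541 in Malme3M. Its mean log2 fold change was -0.06 (95% interval -0.33 to 0.21, n = 5 lines, limma adjusted p = 0.731), with SkMel-5 the lowest at -0.57. For FGFR1 the mean was -0.02 (95% interval -0.37 to 0.34, limma adjusted p = 0.940), and the lines ran between -0.60 in SkMel-1, where the signal was 397 at 250 nM against 608 in DMSO, and 0.62 in SkMel-28, where it was 249 against 158. The 3 FGFR1 probe sets over the filter level differed on SkMel-28 (0.62, 0.18 and -0.38) and all were lower in SkMel-1 (-0.60, -0.22 and -0.51). For INSR the mean was -0.03 (95% interval -0.35 to 0.28, limma adjusted p = 0.878), between -0.44 in SkMel-5 and 0.48 in SkMel-19. These intervals include changes in either direction, so the receptors are not shown to be unchanged.

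**Figure D3:**
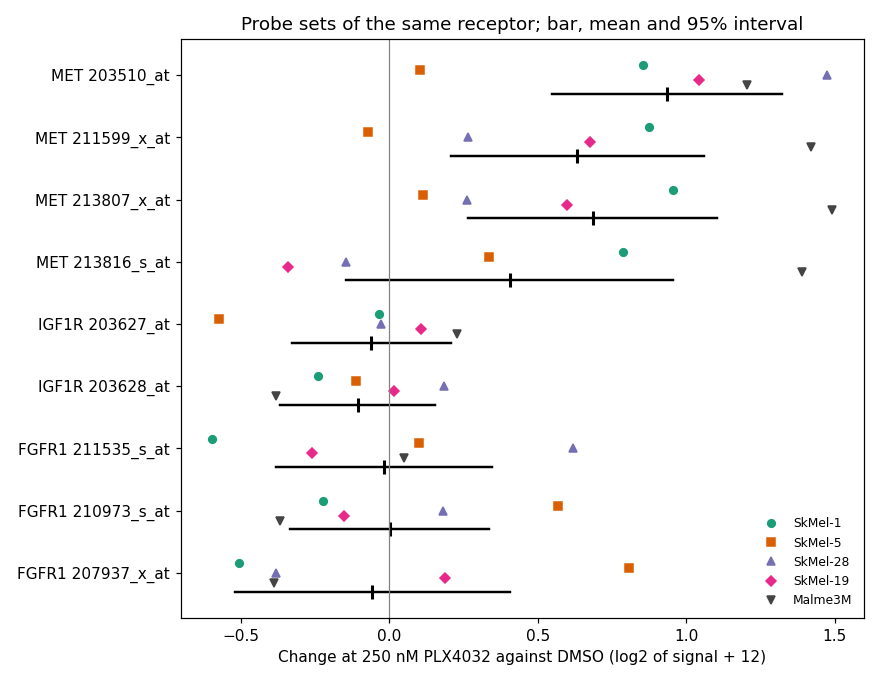
Change in log2(signal + 12) at 250 nM PLX4032 against DMSO for the 9 probe sets of MET, IGF1R and FGFR1 whose mean is over the filter level; coloured points are the 5 lines and bars the mean with its 95% interval. The MET probe sets have means between 0.40 and 0.94, and those of IGF1R and FGFR1 lie between -0.11 and 0.00.

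Of the receptors below the filter, none passed in the fit of every probe set, though 1 EGFR probe set did under other settings. The brightest AXL probe set changed by 0.03 (SE 0.24, limma adjusted p = 0.962), with Malme3M, the line in which it was measured, at 242 with 250 nM and 352 in DMSO. The brightest EGFR probe set changed by 0.03 (SE 0.19, limma adjusted p = 0.941). EGFR probe set 201983_s_at was lower in all 5 lines (-0.51, SE 0.16, limma adjusted p = 0.0801), and passed with quantile normalization (-0.62, limma adjusted p = 0.036) and without a variance trend (limma adjusted p = 0.0421), although 201984_s_at of the same gene was higher in 2 of them. The PDGFRA probe sets changed by -0.34, 0.32 and 0.01, all at an adjusted p of 0.478 or above. With no filter, the log2 fold change at 1000 nM was -0.36 for AXL, -0.11 for EGFR and 0.34 for PDGFRA, none of which passed (limma adjusted p = 0.582, 0.848 and 0.511).

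At 1000 nM, given to SkMel-19 and Malme3M, KIT and MET again were the 2 of 7 receptors that passed, both higher, against 11.2% of all genes tested, 5.29% of them higher and 5.89% lower. KIT had signals of 147 in DMSO, 433 at 250 nM and 394 at 1000 nM in SkMel-19, and 1034, 3908 and 4074 in Malme3M. Its log2 fold change at 1000 nM was 1.66 (SE 0.16, n = 2 lines, limma adjusted p = 0.00586) and at 250 nM in the same lines 1.70 (SE 0.16, limma adjusted p = 0.00543). MET had 1716, 3546 and 2941 in SkMel-19 and 2054, 4746 and 5123 in Malme3M, with a log2 fold change of 1.04 at 1000 nM (SE 0.13, limma adjusted p = 0.0107) and 1.12 at 250 nM (SE 0.13, limma adjusted p = 0.00961). In these lines 11.3% of all genes tested passed at 250 nM, 5.98% higher and 5.36% lower. Both doses are set against the same DMSO arrays, so their values are not independent of each other. In a fit of all 12 arrays with 1 of these lines left out, neither receptor passed at 1000 nM: KIT stood at 1.64 without SkMel-19 and 1.18 without Malme3M (limma adjusted p = 0.102 and 0.238), and MET at 1.17 and 0.69 (0.129 and 0.409).

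Between the doses 0 of 7 receptors and 0% of all genes tested passed limma at an adjusted p under 0.05, with 75 genes at an unadjusted p under 0.05. KIT differed between 1000 and 250 nM by -0.04 on the log2 scale (95% interval -0.44 to 0.36). MET, by its brightest probe set, differed by -0.08 (95% interval -0.41 to 0.25). These intervals leave room for a difference in either direction. With the mean of the MET probe sets the difference was 0.27 and did not pass. For ERBB2 the log2 fold change at 1000 nM was 0.31 (SE 0.13, limma adjusted p = 0.167) and for ERBB3 -0.05 (SE 0.16, limma adjusted p = 0.857). IGF1R stood at 0.09, FGFR1 at -0.09 and INSR at -0.17, none of which passed.

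Some receptors differed by dose within a line, on 1 array per dose and with no test of their own. In Malme3M the second IGF1R probe set (203628_at) had signals of 432 in DMSO, 328 at 250 nM and 155 at 1000 nM, while 203627_at had 541, 635 and 552 on the same arrays, so the probe sets of IGF1R disagreed. AXL in Malme3M had 352, 242 and 196. INSR in Malme3M had 301, 271 and 194 and in SkMel-19 176, 250.4 and 213. MET probe set 213816_s_at had 222, 173 and 358 in SkMel-19 and 210.1, 569.5 and 904.5 in Malme3M. By 213807_x_at MET had 1102.6, 1674.7 and 1666.4 in SkMel-19 and 1061.2, 3007 and 3825.5 in Malme3M. The brightest MET probe set was lower at 1000 than at 250 nM in SkMel-19, so the probe sets of MET disagreed there.

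Malme3M and SkMel-19 were compared for the size of their response, with the doses of a line averaged. The doses of a line stood in for replicates, and no line had a repeat DMSO array. The SE of this comparison therefore rests on differences between doses within a line, not on repeat cultures. The test assumes that the doses act alike. None of the 7 receptors passed, against 2.91% of all genes tested (0.933% higher in Malme3M and 1.98% lower). For KIT the response of Malme3M exceeded that of SkMel-19 by 0.52 on the log2 scale (SE 0.15, limma adjusted p = 0.123). For ERBB3, which was lower with drug in Malme3M and higher in SkMel-19, the difference was -0.58 (SE 0.13, limma adjusted p = 0.0669). For INSR it was -0.74 (SE 0.31, limma adjusted p = 0.256) and for MET 0.35 (SE 0.17, limma adjusted p = 0.322).

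Other genes of receptor signalling were read from lists chosen by function, shown in the plot of receptor signalling genes. Ligands were mostly too dim to test. Of 7 measured, GAS6, the ligand of AXL and its relatives, rose in all 5 lines (0.50, SE 0.10, limma adjusted p = 0.00645), and none of the 7 passed as lower. Of all genes tested 15.2% rose and 13.1% fell. Among the ligands too dim for that test, 1 probe set of FGF2, a fibroblast growth factor named after its values were seen, fell in all 5 lines in the fit of every probe set (-0.84, SE 0.21, limma adjusted p = 0.0378), while its second probe set did not pass (-0.46, SE 0.30, limma adjusted p = 0.4). GAS6 had 324, 340.2, 391, 322 and 314 at 250 nM in SkMel-1, SkMel-5, SkMel-28, then SkMel-19 and Malme3M, against 201, 281, 273, 225 and 208 in DMSO, so every treated line was above every untreated one. HBEGF, an EGFR ligand named after its values were seen, was lower in 4 of 5 lines without passing (-0.67, SE 0.23, limma adjusted p = 0.0537). The KIT ligand gene KITLG and the MET ligand gene HGF lay below the filter, with no probe set passing in the fit of every probe set.

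**Figure D4:**
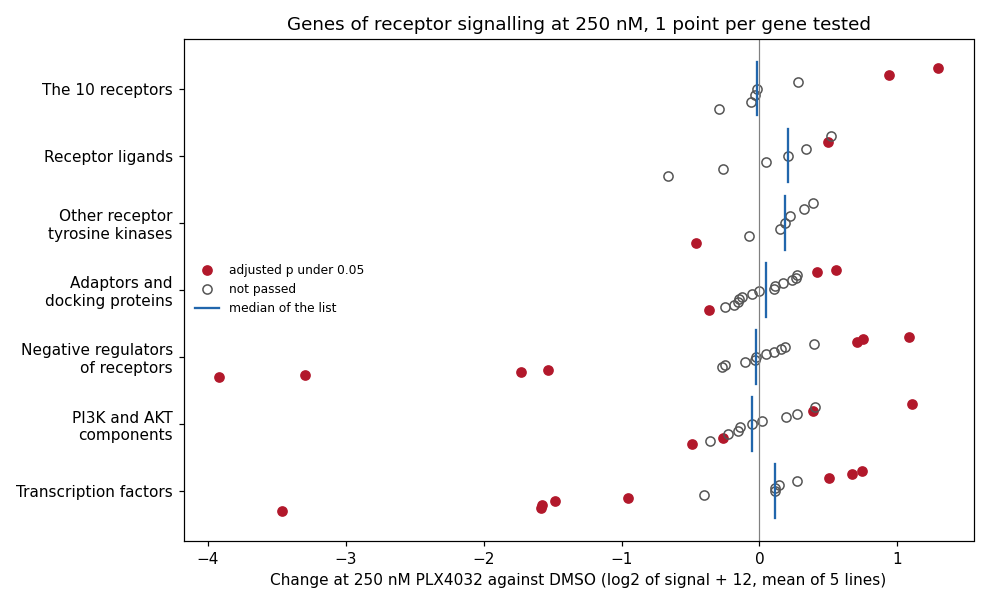
Mean change in log2(signal + 12) over the 5 lines at 250 nM PLX4032 against DMSO for every gene tested in each list, filled where limma's adjusted p is under 0.05; vertical bars are list medians. Of the receptors KIT and MET are filled, and the largest falls are those of SPRY2 (-3.92), FOSL1 (-3.47) and SPRY4 (-3.29).

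Among 7 other growth-factor receptor tyrosine kinases measured, RYK, a Wnt co-receptor with an inactive kinase, fell in all 5 lines (-0.46, SE 0.09, limma adjusted p = 0.00620). None passed as higher, where 15.2% of all genes tested rose and 13.1% fell. The list median was 0.18 against 0.03 over all genes tested. FGFR4, picked out after its values were seen, was higher in all 5 lines without passing (0.39, limma adjusted p = 0.060). MERTK, ROR1, DDR2 and PTK7 were higher in 4 of 5 lines and TYRO3 in 2, and none of them passed. In the fit of every probe set, 2 probe sets of the 63 for such receptors rose and 3 fell, against 5.00% and 5.11% of all probe sets, and were those of FGFR3, MST1R, KDR and RYK; FGFR3 and MST1R were singled out after their values were seen. KDR, a receptor for VEGF, had 108, 20.1, 135, 6.6 and 28.6 at 250 nM in SkMel-1, SkMel-5, SkMel-28, then SkMel-19 and Malme3M, against 471, 42.6, 544, 12.4 and 186 in DMSO (log2 fold change -1.47, SE 0.29, limma adjusted p = 0.0166). In SkMel-5 and SkMel-19 it was under the filter level both at 250 nM and in DMSO. FGFR3 had 202, 27.5, 12.6, 15.4 and 172 at 250 nM against 43.5, 12.8, 3.4, 5.2 and 19.8 in DMSO (1.30, SE 0.31, limma adjusted p = 0.033), so only SkMel-1 and Malme3M passed the filter level, and only with drug. The second FGFR3 probe set was higher in 3 of 5 lines and did not pass (0.535, SE 0.24, limma adjusted p = 0.208). MST1R stayed under that level on every array. PDGFRB, the other PDGF receptor, did not exceed 33.8.

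Inside the cell, 2 of 16 adaptors and docking proteins rose and 1 fell, and of all genes tested 28.3% passed, 15.2% rising and 13.1% falling. IRS2, which docks PI3K on the insulin and IGF receptors, rose in all 5 lines (0.55, SE 0.10, limma adjusted p = 0.00472). So did FRS3, a docking protein of FGF receptors (0.42, SE 0.13, limma adjusted p = 0.0440), while the kinase SRC fell (-0.36, SE 0.09). FRS3 lay near the filter level, at 58.0 to 87.4 in DMSO, and did not pass in the fit of every probe set (limma adjusted p = 0.116). Of 13 PI3K and AKT components 2 rose and 2 fell, a share near that 28.3%. PIK3R3, a regulatory subunit of PI3K, rose 1.10 (SE 0.15, limma adjusted p = 0.00128) and TSC2, an inhibitor of mTOR signalling, rose 0.39 (SE 0.11), whereas the phosphatase INPP4B (-0.49, SE 0.11) and the kinase AKT1 (-0.26, SE 0.08) fell. The list medians were 0.05 for adaptors and -0.06 for PI3K and AKT components, against 0.03 over all genes tested.

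Of 17 negative regulators of receptors, 4 fell and 3 rose, where 13.1% of all genes tested fell and 15.2% rose, with a list median of -0.03 against 0.03 over all genes. The 4 that fell were SPRY2, SPRY4, SPRED2 (-1.73, SE 0.26) and SPRY1 (-1.53, SE 0.16), the Sprouty and SPRED inhibitors that ERK signalling is known to induce, in all 5 lines. The 3 that rose, picked out after their values were seen, act by other means: SOCS6, which binds KIT (1.08, SE 0.15, limma adjusted p = 0.00161), CBLB, a ubiquitin ligase that marks receptors for breakdown (0.75, SE 0.16, limma adjusted p = 0.00994), and the phosphatase DUSP3 (0.71, SE 0.10). At 1000 nM 1 of the 17 rose, SOCS6 (1.28, limma adjusted p = 0.0166), and 4 fell, where 5.29% of all genes tested rose and 5.89% fell.

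Of 13 transcription factors tied to receptor expression in melanoma, 3 rose and 5 fell at 250 nM, where 15.2% of all genes tested rose and 13.1% fell, and the list median was 0.11 against 0.03 over all genes. FOSL1 and JUN, the AP-1 subunits linked to AXL and EGFR expression, fell (-3.47, SE 0.28, and -1.59, SE 0.25), as did TFAP2C (-1.58, SE 0.21), which is known to bind the ERBB2 promoter, LEF1 (-1.48, SE 0.32) and WWTR1 (-0.96, SE 0.13), the coactivator TAZ. FOXO3, whose family is known to raise ERBB3 and INSR expression, rose (0.74, SE 0.13, limma adjusted p = 0.00397), as did TFAP2A (0.67, SE 0.13), which is known to bind the KIT promoter, and ZEB2 (0.50, SE 0.13); WWTR1, FOXO3, TFAP2A and ZEB2 were picked out after their values were seen. MITF and SOX10 did not pass (0.11, SE 0.07, and 0.11, SE 0.06).

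Genes whose log2 signal over the 12 arrays most resembled that of a receptor were named by Pearson's r, as a description. The arrays of a line share that line's level, so these values mainly follow differences between lines. They were ZNF219 (r = 0.983) and CCDC25 (0.978) for KIT, ARHGEF7 (0.968) and GPRC5A (0.965) for MET, MARK3 (0.988) and GAS1 (0.986) for ERBB2, and FARP2 (0.961) and IGFLR1 (0.959) for ERBB3. For FGFR1 they were RTF1 (0.965) and DCUN1D4 (0.961), for IGF1R OR7E12P (0.945) and ERGIC2 (0.943), and for INSR RARA (0.757) and STX1A (0.747). INSR, the receptor with the least difference between lines, had the lowest likeness to any other gene.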

How the data were processed

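The deposited table gives 1 intensity value per probe set and array, which the authors obtained with GCOS, Affymetrix's scanner software (per the submitters' processing notes); the way probes were summarised is not given in these sources. Array means between the lowest and highest 2% lie between 498.3 and 499.9, so values were used as deposited, as log2(signal + 12), where 12 is the 20th percentile. Depth has no counterpart on arrays, whose number limits the precision. Of 22277 probe sets 62 controls were set aside, and 19064 carried 1 symbol, 1043 several and 2108 none. For a gene the probe set of highest mean level was taken, and genes under the 40th percentile were left out.

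limma 3.58.1 in R 4.3.3 (trend on mean level, threshold 0.05) compared 250 nM with DMSO on 10 arrays (4 residual degrees of freedom) and the doses on the 6 arrays of SkMel-19 and Malme3M (2). Cell line, named in the labels, pairs the arrays: with group means subtracted, DMSO and 250 nM arrays of a line correlated at 0.898 to 0.931, against -0.341 to -0.135 between lines. Named genes were all 10 receptors, up to 4 genes per list with the largest change that passed, the 2 genes most like each receptor tested, and cell type markers; exceptions are stated. Receptors and lists were chosen with earlier results of these data known. Tested on simulated data, the 250 nM comparison of 7178 genes recovered 89.3% of genes changed by 1 on the log2 scale, and that of 1000 nM 50%. For a change of 0.5 the shares were 50% at 250 nM and 8.67% at 1000 nM. The simulation used independent normal noise and changed far fewer genes than passed at 250 nM, so these shares need not hold for the real arrays. Figures used matplotlib 3.10.9 in Python 3.11.15.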

Additional observations from a re-analysis of the deposited data

Results flagged for a closer look

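For the 10 receptors, 30 sets of 5 values were examined (the log2 signal at 250 nM, the log2 signal in DMSO and the change in each line), and in 5 of them 1 line stood apart from the others by more than 0.71 of the whole range. Chance alone marks about 1 in 20 such sets, and the sets of a receptor are not independent. MET had a log2 signal of 4.61 in SkMel-28 with DMSO, against 9.53 to 11.01 in the other lines. EGFR had 7.10 in SkMel-28 at 250 nM, against 5.60 to 6.01. ERBB2 had 6.84 in SkMel-1 at 250 nM, against 8.63 to 9.34, and 6.89 in DMSO, against 8.37 to 8.89. AXL had 8.51 in Malme3M with DMSO, against 4.03 to 5.26. No change at 250 nM was marked in this way.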

How the results depend on the processing

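KIT and MET stayed higher with PLX4032 than in DMSO in all alternatives run, but their difference between 1000 and 250 nM changed sign in some. At 250 nM in 5 lines each passed in 15 of 16, between 1.14 and 1.58 for KIT and 0.64 and 1.14 for MET, failing only in the fit with no replicate block, that is, without the pairing by cell line. That fit called 13 genes at 250 nM, 9 probe sets in the fit of every probe set, and 0 genes at 1000 nM and at 250 nM in SkMel-19 and Malme3M, with 0 receptors or receptor probe sets in each. The fits at 1000 nM (main count 803) called 530 genes without a variance trend, 445 without a filter and, in a setting chosen after seeing the data, 182 with low signals raised to the filter level; in the last only 1 receptor passed (KIT). At 250 nM in the same lines (814) the counts were 430 without a filter, 175 with raised signals and 2277 with all 12 arrays, and 1 receptor passed with raised signals and 1 with the mean of a gene's probe sets (KIT in both). For every probe set (2245) the counts were 1058 without a trend and 501 with raised signals, where 0 receptor probe sets passed, and 4 receptor probe sets passed when only probe sets over their own 40th percentile were tested. The difference in response between Malme3M and SkMel-19 (209) was called for 64 genes without a trend and 41 without a filter; 1 receptor passed with a pseudocount of 52 (KIT) and 1 with quantile normalization (ERBB3). With 1 line left out, calls ran between 1288 (without SkMel-19; 1339 without Malme3M) and 1836 genes at 250 nM, between 1112 (without SkMel-19) and 1799 probe sets (without SkMel-5), with 1 receptor probe set without SkMel-19 to 4 without SkMel-5, and between 46 and 114 genes at 1000 nM, with 0 receptors; fewer arrays remained. The causes of the other shifts were not tested. In the fit of every probe set MET 203510_at did not pass without SkMel-19 (adjusted p = 0.0516). MET 211599_x_at and 213807_x_at passed without SkMel-5 and with the 40th percentile filter, and EGFR 201983_s_at with quantile normalization and without a trend. INSR passed the test between lines with the mean of its probe sets. Of 833 recomputed log2 changes of receptors 73 changed sign, and 0 of these passed before or after the change. With a pseudocount of 52 these were AXL 202686_s_at -0.020, FGFR1 210973_s_at -0.025, PDGFRA 211533_at -0.003 (every probe set). With arrays centred on the median these were AXL 202686_s_at -0.001, FGFR1 210973_s_at -0.028, PDGFRA 211533_at -0.022, EGFR 211607_x_at -0.004 (every probe set). With quantile normalization these were AXL 202686_s_at -0.023, FGFR1 210973_s_at -0.017, EGFR 211551_at -0.038 (every probe set). With the mean of a gene's probe sets these were IGF1R -0.27 (1000 nM against DMSO), ERBB2 0.13, INSR 0.007, MET 0.27 (1000 against 250 nM), ERBB3 -0.012, INSR -0.13 (250 nM in SkMel-19 and Malme3M), FGFR1 -0.34 (Malme3M minus SkMel-19). With all 12 arrays, where the 250 nM effect is that of 5 lines, these were IGF1R -0.026 (1000 nM against DMSO), ERBB3 0.091, FGFR1 -0.027, IGF1R 0.035, KIT 0.17, MET 0.014 (1000 against 250 nM), ERBB3 -0.30, IGF1R -0.061, INSR -0.033 (250 nM in SkMel-19 and Malme3M). With raised signals these were EGFR 201984_s_at 0.085, AXL 202686_s_at -0.10, FGFR1 210973_s_at -0.030, FGFR1 215404_x_at 0.006 (every probe set). With 1 line left out the ranges were AXL 202686_s_at -0.12 to 0.20, EGFR 201984_s_at -0.22 to 0.16, EGFR 210984_x_at -0.043 to 0.011, EGFR 211551_at -0.12 to 0.12, EGFR 211607_x_at -0.042 to 0.056, ERBB2 210930_s_at -0.27 to 0.38, ERBB3 215638_at -0.11 to 0.028, FGFR1 207937_x_at -0.27 to 0.055, FGFR1 210973_s_at -0.14 to 0.093, FGFR1 211535_s_at -0.18 to 0.13, FGFR1 215404_x_at -0.25 to 0.022, IGF1R 203627_at -0.13 to 0.067, IGF1R 208441_at -0.16 to 0.027, INSR 213792_s_at -0.16 to 0.069, PDGFRA 211533_at -0.14 to 0.19 (every probe set). With all 12 arrays less 1 line the ranges were ERBB2 -0.15 to 0.11, ERBB3 0.11 to 0.15, FGFR1 -0.053 to -0.022, IGF1R -0.034 to 0.16, INSR -0.45 to 0.018, KIT 0.040 to 0.39, MET -0.18 to 0.26 (1000 against 250 nM). With all 12 arrays less 1 line the ranges were FGFR1 -0.088 to 0.020, IGF1R -0.14 to 0.027, INSR -0.61 to 0.013 (1000 nM against DMSO). With 1 line left out the ranges were FGFR1 -0.18 to 0.13, IGF1R -0.13 to 0.067, INSR -0.16 to 0.069 (250 nM). Signals under 85.7 limit what can be said of EGFR, AXL, PDGFRA, of KIT and MET in SkMel-28 and of KIT in SkMel-5.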
